A study of Mus musculus with 12 samples.

Results

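The genes of the elastic fibre and of fibronectin were followed across 4 culture conditions of a mouse fibroblast line. The set had 9 members, chosen by gene symbol with earlier results of these data known: elastin (Eln), the fibrillins Fbn1 and Fbn2, the fibulins Fbln1, Fbln2 and Fbln5, the microfibril-associated proteins Mfap4 and Mfap5, and fibronectin (Fn1). All 9 were found among the 56941 genes of the count table, and 7 of them were among the 14810 genes with enough reads to be tested. Eln and Fbn2 were not.

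An elastic fibre is built outside the cell. Fibronectin fibrils and fibrillin microfibrils form a scaffold, fibulins and microfibril-associated proteins bind to it, and tropoelastin is laid down on the scaffold and cross-linked by enzymes of the lysyl oxidase family. In skin, dermal fibroblasts make these proteins, and the fibres give the tissue its recoil.

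The libraries came from 3T3-L1, an established mouse fibroblast line that can be turned into adipocytes, labelled as wild type. Cells were left untreated (control) or received IL-4 and IL-13 at 50 ng/mL each (IL-4/13). Others received a mixture of inflammatory cytokines (Inf: 20 ng/mL TNF-α with 50 ng/mL IL-17A, plus IL-1β at a dose of 0.5 ng/mL) or all 5 cytokines (IL-4/13 + Inf). RNA was taken after 24 hours. Polyadenylated RNA was sequenced in 3 libraries per condition, 12 in all, which carried 1 batch label. The labels do not say whether the 3 libraries of a condition came from separate cultures, so P values measure the spread between these libraries, which may be technical, in a single cell line.

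Library depth was 13446005 to 20775769 counts. Of 10 fibroblast markers 9 were past the filter on low counts, and their summed level was 14630 to 16690 CPM (counts per 1000000 of the scaled library size) in control and 10620 to 10870 CPM in IL-4/13 + Inf. The list did not move as one: from control to Inf, Col1a1 went from 3893 to 2493 CPM, Col1a2 from 5541 to 3813 and Vim from 3625 to 2332, Col3a1 was at 1733 and 1721, and Dcn went from 103 to 1756, Lum from 2.25 to 22.4, Pdgfra from 196 to 385 and Pdgfrb from 269 to 481. The part of these changes in the results below was not tested. Adipocyte markers were at or under 3 counts for 6 of 8 genes in every condition, Adipoq, Plin1 and Lep included, and macrophage markers for 4 or 5 of 8, Adgre1 and Itgam included. Of the detected adipocyte markers, Fabp4 went from 11.3 CPM in control to 30.1 with Inf, and Cebpa from 4.58 to 2.29. Of the macrophage list, Csf1r, Lyz2 and Cd68 were at 3.54, 2.89 and 1.01 CPM in control. The smooth muscle list summed to 1329 to 1367 CPM in control and 920.3 to 960.4 CPM in IL-4/13 + Inf, with its defining gene Myh11 at or under 3 counts except in IL-4/13. Nearly all of that sum was Acta2, at a mean of 1284 CPM in control and 884.8 in IL-4/13 + Inf. In control, Smtn was at 59.4 CPM, and Cnn1, Tagln and Des were at 0.957, 1.42 and 1.97. In bulk RNA, fewer cells making a transcript and less of it per cell cannot be told apart.

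The 9 genes took 0.542% ± 0.0499 (SD, n = 3) of all counts in the control libraries, 0.433% ± 0.0244 with IL-4/13, 0.344% ± 0.0361 with Inf and 0.276% ± 0.0127 with the combination. Fn1 and Fbln2 made up 90.7% to 93.2% of that share. By mean CPM over the 12 libraries, Fbln2 ranked 19 and Fn1 ranked 28 in the whole table.

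Levels of different genes were set side by side as CPM per kilobase of the longest annotated transcript. In control, Fbln2 was highest at 556 CPM per kilobase, followed by Fn1 at 284, Fbln5 at 26, Fbln1 at 16.7, Fbn1 at 11.02, Mfap5 at 5.30 and Mfap4 at 2.72. Fbln5 stood above Fbln1 and Fbn1 in control and in IL-4/13, and below both with Inf and with IL-4/13 + Inf, where it was at 8.13 CPM per kilobase against 14.4 for Fbln1 and 12.6 for Fbn1. This change of order rests on the length used: per kilobase of coding length Fbln5 stayed above both, at 42.1 with Inf against 31.2 for Fbln1 and 15.4 for Fbn1, and at 34.3 with IL-4/13 + Inf against 24.9 and 17.4. With Inf alone, per transcript length, the libraries of Fbln5 (9.41 to 10.3 CPM per kilobase) and Fbn1 (9.57 to 12.1) overlapped. Per kilobase of coding length the control order changed in 1 place, with Mfap5 at 26.9 above Fbn1 at 15.3.

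**Figure D1:**
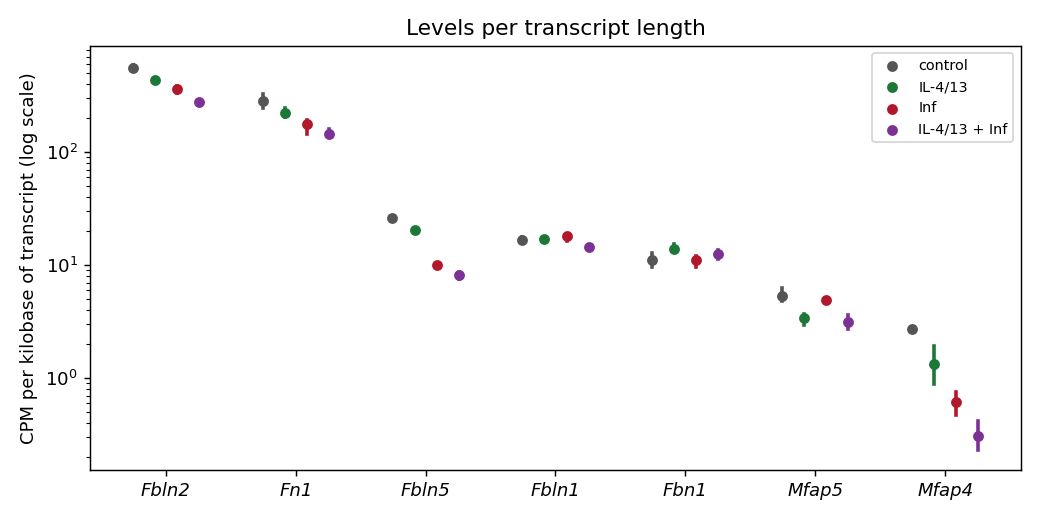
Level per transcript length (CPM per kilobase, log scale) of the 7 tested genes in the 4 conditions. Points are means and bars run from the lowest to the highest of 3 libraries; Fbln2 and Fn1 stand highest in every condition, and the crossing of Fbln5 below Fbln1 and Fbn1 with Inf is not seen per coding length.

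Upstream sequences are shown for 2 fibulin genes: Fbln5, which fell the most of the 3 fibulins with Inf, and Fbln1, which was not called with Inf. Both are the 250 bases before a RefSeq gene start in GRCm38.p6, a different build from that of the counts, written 5′ to 3′ on the strand of the gene, and neither window overlaps an annotated exon. Fbln5 lies on the minus strand at chr12:101819120-101819369, and Fbln1 on the plus strand at chr15:85205699-85205948.
Fbln5 upstream: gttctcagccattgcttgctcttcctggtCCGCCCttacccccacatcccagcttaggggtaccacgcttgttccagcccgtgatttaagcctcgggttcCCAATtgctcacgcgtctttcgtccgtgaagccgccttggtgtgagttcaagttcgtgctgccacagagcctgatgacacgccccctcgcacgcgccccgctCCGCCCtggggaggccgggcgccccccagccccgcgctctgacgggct
Fbln1 upstream: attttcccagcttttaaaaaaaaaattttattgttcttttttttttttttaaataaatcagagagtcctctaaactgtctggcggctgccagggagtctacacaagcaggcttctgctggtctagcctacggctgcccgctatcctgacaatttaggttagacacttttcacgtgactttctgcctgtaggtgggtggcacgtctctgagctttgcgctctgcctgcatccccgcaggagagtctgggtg
Capitals mark matches to the motifs searched on both strands: AP-1 (TGANTCA), the STAT6 palindrome, Sp1 (GGGCGG), the CCAAT box (CCAAT) and the NF-kB consensus. The Fbln5 window held the Sp1 letters in 2 places and 1 CCAAT box, while the Fbln1 window held no match. RefSeq gives a second start window for each gene, not printed since it overlaps an exon, and there the Fbln5 window held no match and the Fbln1 window held the Sp1 letters in 1 place. Among 32851 RefSeq windows of the same length, 32.74% held the Sp1 letters, 33.85% CCAAT, 6.75% AP-1, 5.85% STAT6 and 3.9% NF-kB. These are matches of letters and not binding sites. RefSeq start windows were at hand for 4 of the 9 members, Fbn1, Fbln1, Fbln2 and Fbln5, and those of Fbn1 and Fbln2 lie in annotated exons and are not printed. The Fbn1 window and the Fbln2 window each held the Sp1 letters in 1 place and no other match. Fbn1 was not called with Inf and Fbln2 was called lower. A link between matches and responses was not tested.

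Elastin itself, the core of the fibre, was barely detected. Eln had 1 count in each of 2 libraries (IL-4/13 replicate 3 and Inf replicate 3) and 0 in the other 10, which is 2 counts among 203175895. Fbn2, the fibrillin best known from embryonic tissue, had 8 counts over 6 libraries and at most 3 in 1 library, IL-4/13 replicate 1. All values of both genes were at or under a floor of 3 counts, which was 0.146 to 0.221 CPM depending on depth. Neither gene was tested, and a difference between conditions was not detectable at this depth.

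Fibronectin, the fibril that cells lay down first and hold through integrins, fell with Inf. Fn1 was at 2309, 2032 and 2746 CPM in the control libraries, 2063, 1689 and 1772 in IL-4/13, 1604, 1606 and 1195 under Inf, and 1135, 1332 and 1145 under IL-4/13 + Inf. The Inf libraries were all below the control and the IL-4/13 libraries, whereas control overlapped IL-4/13 and Inf overlapped IL-4/13 + Inf. Fn1 was 37.8% lower in Inf than in control (log2 difference -0.69 ± 0.15 SE, adjusted P = 0.00655 by edgeR) and 49.0% lower in IL-4/13 + Inf (-0.97 ± 0.15, adjusted P = 0.00113). Against IL-4/13, the combination was lower by -0.61 ± 0.15 (adjusted P = 0.0148), a call that was lost without IL-4/13 replicate 1, IL-4/13 + Inf replicate 1 or IL-4/13 + Inf replicate 3 (adjusted P up to 0.058). IL-4/13 alone gave -0.36 (95% CI -0.71 to -0.01, unadjusted) with an adjusted P of 0.229, and IL-4/13 on top of Inf gave -0.29 (95% CI -0.64 to 0.07, adjusted P = 0.241).

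**Figure D2:**
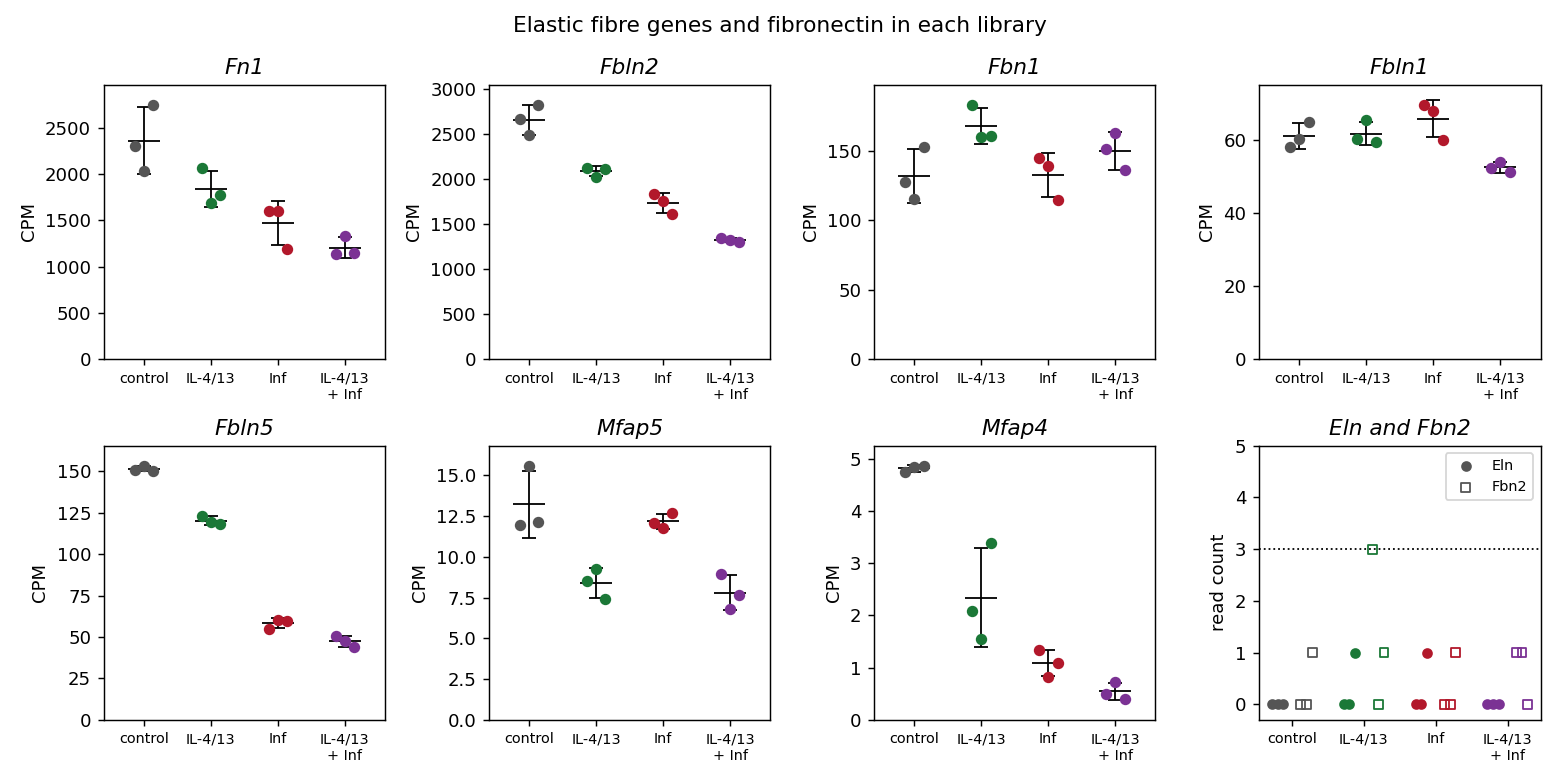
CPM of 7 members in each library by condition (points), with the mean and SD of 3 libraries, and the raw read counts of Eln and Fbn2 with the floor of 3 counts dotted. Fbln2, Fbln5 and Mfap4 step down from control to IL-4/13 to Inf to IL-4/13 + Inf with no overlap between neighbours, while Fbn1 overlaps throughout the order of its means.

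Fibrillin 1, the main subunit of the microfibril, was not called in any comparison. Fbn1 was at 127.6, 115.2 and 153 CPM in control, 182.9, 160 and 161 in IL-4/13, 144.8, 139 and 114.6 under Inf, and 151.7, 163 and 135.9 under IL-4/13 + Inf. The IL-4/13 libraries were all above the control libraries, and each pair of neighbours in the order of means (IL-4/13, IL-4/13 + Inf, Inf, control) overlapped. The difference of IL-4/13 from control was 0.35 ± 0.13 SE on the log2 scale (95% CI 0.06 to 0.64, unadjusted, adjusted P = 0.147 by edgeR). Without control replicate 3, the highest control, it was 0.47 and was called (adjusted P = 0.0288). For Inf against control the interval was -0.28 to 0.30 around 0.01. On the opposite strand, Fbn1 shares 2442 of its 12128 exonic bases with Gm9913, which had 1 to 11 counts per library.

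The fibulins, which bind fibrillin, fibronectin and tropoelastin, did not move as a group. Fbln2 was at 2672, 2490 and 2824 CPM in control, 2121, 2023 and 2120 in IL-4/13, 1835, 1757 and 1613 under Inf, and 1350, 1327 and 1300 under IL-4/13 + Inf. No neighbouring conditions overlapped. Fbln2 fell by 21.6% with IL-4/13 (log2 difference -0.35 ± 0.04 SE, adjusted P = 3.01e-06 by edgeR), by 34.8% with Inf (-0.62 ± 0.04, adjusted P = 5.3e-12) and by 50.2% with both (-1.01 ± 0.05, adjusted P = 1.28e-16). On top of Inf, IL-4/13 gave -0.39 ± 0.04 (adjusted P = 2.24e-07), and the interaction, how far the IL-4/13 response with Inf exceeded the one without, was -0.04 (95% CI -0.17 to 0.09).

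Fbln5, a fibulin needed for elastic fibre assembly, fell with each stimulus and most with Inf. It was at 151, 153.2 and 150.4 CPM in control, 123.1, 119.4 and 118 in IL-4/13, 54.83, 60.1 and 59.9 under Inf, and 50.38, 47.72 and 44.07 under IL-4/13 + Inf. All 4 conditions were separate. Fbln5 fell by 20.7% with IL-4/13 (log2 difference -0.33 ± 0.05, adjusted P = 3.02e-05), by 61.5% with Inf (-1.38 ± 0.05, adjusted P = 1.91e-19) and by 68.7% with both (-1.67 ± 0.05, adjusted P = 1.99e-21). The step from Inf to IL-4/13 + Inf was -0.30 ± 0.06 (adjusted P = 0.000233), and the call was lost without IL-4/13 + Inf replicate 3, where the difference was -0.25.

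Fbln1, a fibulin of basement membranes and elastic fibres, was called lower where IL-4/13 was added to Inf. It was at 58.06, 60.47 and 65.05 CPM in control, 60.5, 65.57 and 59.61 in IL-4/13, 69.65, 68.09 and 60.14 under Inf, and 52.32, 54.19 and 51.29 under IL-4/13 + Inf. The first 3 conditions overlapped and the IL-4/13 + Inf libraries were below all of them. IL-4/13 gave 0.02 (95% CI -0.11 to 0.15) without Inf and -0.33 ± 0.06 SE with Inf (adjusted P = 0.000271 by edgeR), and the interaction was -0.34 ± 0.09 (adjusted P = 0.0258). The interaction call was lost in 7 of the 12 fits that left out 1 library, with an adjusted P of up to 0.0962: it needed control replicates 1 and 2, IL-4/13 replicate 2, Inf replicates 1 and 2, and IL-4/13 + Inf replicates 1 and 3. Against control, IL-4/13 + Inf gave -0.22 (adjusted P = 0.0084), within the threshold of 0.25.

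Of the microfibril-associated proteins, Mfap4, which binds tropoelastin and fibrillin, had the largest differences of the 7 tested genes and the fewest reads. It had 83, 78 and 81 counts in control (4.74, 4.84 and 4.86 CPM), 39, 24 and 46 in IL-4/13 (2.09, 1.56 and 3.38 CPM), 20, 17 and 18 in Inf (1.33, 0.828 and 1.09 CPM), and 10, 13 and 6 in IL-4/13 + Inf (0.496, 0.731 and 0.405 CPM). All neighbouring conditions were separate. Mfap4 fell by 51.9% with IL-4/13 (log2 difference -1.06 ± 0.25 SE, adjusted P = 0.00516 by edgeR, and 0.057 without IL-4/13 replicate 2), by 77.8% with Inf (-2.17 ± 0.28, adjusted P = 1.31e-07) and by 88.5% with both (-3.12 ± 0.31, adjusted P = 9.24e-10). The step from Inf to IL-4/13 + Inf was -0.95 (95% CI -1.72 to -0.17, unadjusted) and was not called (adjusted P = 0.0728), except without Inf replicate 2 (adjusted P = 0.05 after rounding). Mfap4 shares 89 exonic bases with Mapk7 on the opposite strand, which was at 52.3 to 63.5 CPM, and the sources do not say whether counting used strand.

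Mfap5, which binds fibrillin microfibrils, was lower in both conditions with IL-4/13. It was at 11.94, 15.57 and 12.12 CPM in control, 8.52, 9.27 and 7.42 in IL-4/13, 12.1, 11.74 and 12.67 under Inf, and 8.93, 6.80 and 7.63 under IL-4/13 + Inf. Control and Inf overlapped, the 2 conditions with IL-4/13 overlapped, and the first pair was wholly above the second. Mfap5 fell by 36.1% with IL-4/13 (log2 difference -0.65 ± 0.13, adjusted P = 0.00088) and by 35.7% when IL-4/13 was added to Inf (-0.64 ± 0.13, adjusted P = 0.000402), with an interaction of 0.01 (95% CI -0.36 to 0.38). Inf gave -0.12 (95% CI -0.37 to 0.13, adjusted P = 0.468).

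Over the set, 4 of the 7 tested members were called lower with IL-4/13 against control (Fbln2, Fbln5, Mfap4 and Mfap5), where 2.57% of all tested genes were called lower. With Inf 4 were lower (Fbln2, Fbln5, Mfap4 and Fn1) against 15.3% of all tested genes, and with IL-4/13 + Inf 5 (those and Mfap5) against 11.5%. These 3 comparisons share the control libraries. IL-4/13 + Inf was lower than Inf for 4 members (Fbln1, Fbln2, Fbln5 and Mfap5) against 7.00% of all genes, and lower than IL-4/13 for 4 (Fbln2, Fbln5, Mfap4 and Fn1) against 11.0%. In the interaction 1 member (Fbln1) was called against 1.59%. A call required an adjusted P under 0.05 and a log2 difference beyond 0.25. No member was called higher in any of the 6 comparisons by edgeR or DESeq2, where 2.78%, 16.3%, 13.4%, 7.55%, 13.3% and 1.52% of all tested genes were called higher in the same order. At an unadjusted P under 0.05, Fbn1 was higher with IL-4/13. The median log2 difference of the 7 members was -0.35 with IL-4/13, -0.62 with Inf and -0.97 with both, where the medians over all tested genes were 0.00, 0.01 and 0.00.

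**Figure D3:**
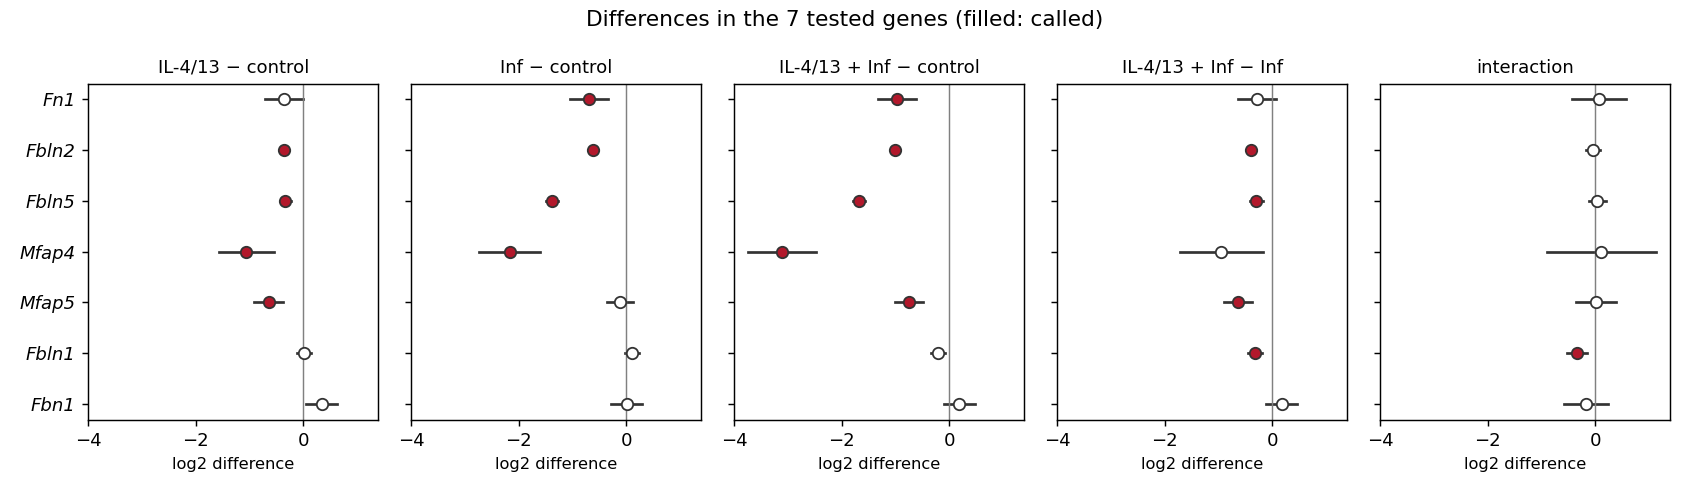
Log2 differences of the 7 tested members in 5 comparisons, with unadjusted 95% confidence intervals as bars; filled points were called. Fbln2, Fbln5 and Mfap4 are filled and left of 0 with each stimulus against control. So are Mfap5 where IL-4/13 was added, and Fn1 against control where Inf was added. Fn1 with IL-4/13 (-0.36) and Mfap5 with Inf (-0.12) are also left of 0 but not filled, and Fbn1 is never filled.

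Ratios between 2 members in the same library do not depend on library size. The counts of Fbln2 to Fbln1 stood at 43.5 ± 2.42 (SD, n = 3) in control, 33.8 ± 2.59 with IL-4/13, 26.3 ± 0.504 with Inf and 25.2 ± 0.664 with the combination. Averaged over cultures with and without the other stimulus, Inf lowered the log2 ratio by a difference of -0.57 and IL-4/13 by -0.21, each at P = 0.005 (adjusted 0.00667 over 4 tests), the smallest P that the exact two-sided permutation within strata of 400 relabellings can give. The mean log2 ratio was 5.442 in control and 5.076 with IL-4/13, but 4.717 with Inf and 4.655 with the combination. The averaged IL-4/13 value thus came mostly from the libraries without Inf. Mfap5 to Mfap4 stood at 2.73 ± 0.408 in control, 4.03 ± 1.84 with IL-4/13, 11.3 ± 2.45 with Inf and 14.6 ± 4.81 with the combination. Inf raised that log2 ratio by 1.97 (exact permutation P = 0.005, adjusted 0.00667), and for IL-4/13 the difference of 0.39 had an exact permutation P of 0.16.

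**Figure D4:**
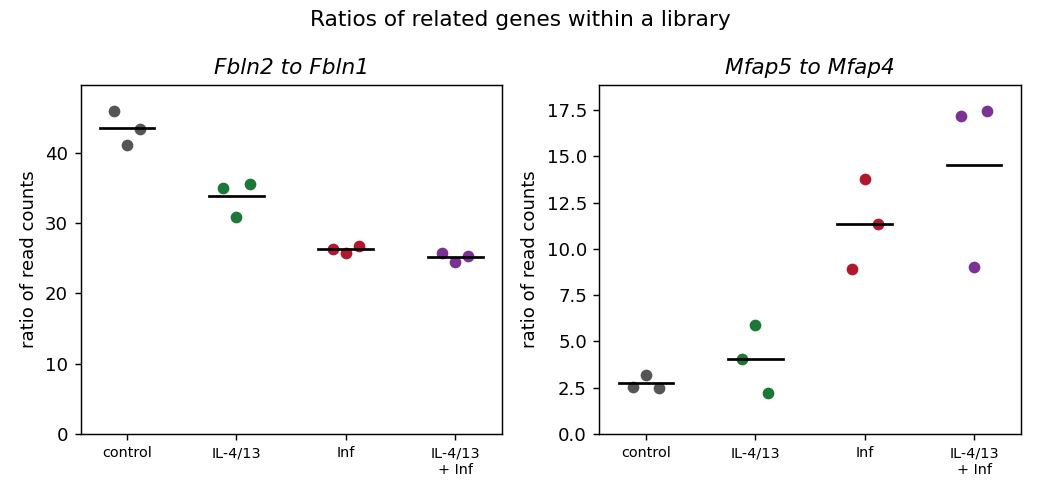
Ratio of read counts (0.5 added to each) of Fbln2 to Fbln1 and of Mfap5 to Mfap4 in each library, with the mean of 3 as a line. Fbln2 to Fbln1 goes from 41.2 to 46.0 in control to 24.5 to 25.8 in IL-4/13 + Inf, and Mfap5 to Mfap4 from 2.48 to 3.20 in control to at most 17.5 in IL-4/13 + Inf.

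Across the 12 libraries, the log2 CPM of Fbln2, Fbln5, Mfap4 and Fn1 rose and fell together, with Pearson's r of 0.888 to 0.962 between pairs. Fbln1 had r of 0.338 to 0.533 with these 4 genes, and Fbn1 and Mfap5 had r of -0.702. These correlations describe 12 libraries of 4 conditions and hold the differences between conditions. Among 10924 other genes with a mean of at least 5 CPM, the pattern most like that of Fbln2 was Col11a1 (r = 0.994), followed by Col1a2 (0.993), a chain of type I collagen, and Prnp (0.991). Fbln5 was most like Cnn2, Capn2 and Pla2g7 (each 0.997), Mfap4 like the dermal matrix gene Dpt (0.98), Rbm22 and Col11a1, and Fn1 like Ssc5d (0.984), Gnao1 and Iqsec2. Fbn1 was most like Zfp143 (0.95), the laminin chain gene Lamb1 and Tarbp1, Mfap5 like Leprot (0.935), Mcrip1 and Fam20a, and Fbln1 like Fbh1 (0.951), Tspan11 and Slc39a3. A correlation over 0.9 was shared by 564 genes for Fbln5 and 350 for Fbln2, but by 4 for Fbn1 and 1 for Fbln1.

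The other genes of the pathway were read from 4 lists of 63 genes, 49 of which were tested. Among the 14 tested genes of microfibril and elastic fibre assembly, IL-4/13 lowered 3 (Adamtsl3, Emilin1 and Efemp2) and raised none, where 2.57% of all tested genes were lower and 2.78% higher. Inf lowered 7 (Adamts10, Adamtsl3, Adamtsl4, Efemp2, Ltbp1, Ltbp3 and Ltbp4) and raised 3 (Ltbp2, Emilin2 and Thsd4). Of all tested genes, 15.3% were lower and 16.3% higher. Thsd4 was near the floor, with 2 to 4 counts per library in control and 12 to 21 with Inf. Adamtsl4 fell by 57.6% with Inf (log2 difference -1.24 ± 0.12 SE, adjusted P = 2.69e-10 by edgeR). Ltbp2, a fibrillin-binding protein, rose from 123 ± 13.2 CPM (SD, n = 3) in control to 229 ± 26.9 with Inf (1.86-fold, adjusted P = 1.45e-05), and Emilin2 rose 1.59-fold (adjusted P = 0.000107). Efemp2, a fibulin that brings lysyl oxidase to tropoelastin, fell by 19.6% with IL-4/13 (adjusted P = 1.08e-05). Ltbp1, a fibrillin-binding protein that holds latent TGF-β, was at 342 ± 16.7 CPM (SD, n = 3) in control and 160 ± 9.37 in Inf (log2 difference -1.09 ± 0.05, adjusted P = 1e-17). Adamtsl3 went from 7.00 ± 0.723 CPM in control to 1.53 ± 0.389 in IL-4/13 + Inf. Emilin1, an elastin-associated glycoprotein, was lowered by IL-4/13 both without Inf (-0.34, adjusted P = 0.00504) and with it (-0.37, adjusted P = 0.000755). The list's median log2 difference was -0.18 with IL-4/13 and -0.35 with Inf.

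Of 9 tested cross-linking genes, IL-4/13 raised 4 (Lox, Loxl2, Loxl3 and Loxl4), where 2.78% of all tested genes were called higher, and 5 were not called, with a median log2 difference of 0.10 over the list. Loxl1 had -0.18 with IL-4/13 (adjusted P = 0.00424), within the threshold of 0.25. Lox, lysyl oxidase, was at 955.6, 935.8 and 971.4 CPM in control, 1883, 1882 and 1875 in IL-4/13, 1499, 1619 and 1551 under Inf, and 2091, 2039 and 2054 under IL-4/13 + Inf. The 4 conditions were separate, with control lowest. Lox rose 1.97-fold with IL-4/13 (log2 difference 0.98 ± 0.04 SE, adjusted P = 5.48e-19 by edgeR) and 2.16-fold with both (1.11 ± 0.04, adjusted P = 1.62e-21). With Inf, 3 of the 9 rose (Bmp1, Lox and Loxl2) and 3 fell (Loxl3, Loxl4 and Tll1). Of all tested genes, 16.3% were called higher and 15.3% lower with Inf. Loxl2 and Tll1 had few reads: Loxl2 had 4 to 14 counts per library in control, and Tll1 had 11 to 19 with Inf. Loxl3 fell by 52.2% and Loxl4 by 44.1%. Adding IL-4/13 to Inf raised Loxl4 1.80-fold, from 90.0 ± 7.65 to 162 ± 9.14 CPM, Lox 1.32-fold and Loxl3 1.28-fold. Bmp1, a protease that processes procollagen and lysyl oxidase, rose 1.75-fold with Inf.

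Among the 10 tested genes of elastin-degrading proteases and their inhibitors, Inf raised 6 and lowered 3. Of all tested genes, 16.3% were called higher and 15.3% lower. Mmp12, macrophage elastase, had 0, 2 and 0 counts in the control libraries, 157, 162 and 109 with Inf and 404, 368 and 351 with the combination. Against a floor of 3 counts per library it was at least 46.4-fold higher in Inf and at least 120-fold higher in IL-4/13 + Inf than in control, and IL-4/13 + Inf was 2.59-fold above Inf (adjusted P = 7.41e-08). Mmp9, a gelatinase that also cleaves elastin, was at 11.1 ± 0.710 CPM in control and 119 ± 8.54 in Inf, a 10.7-fold rise. Slpi, an inhibitor of neutrophil elastase, went from 7.78 ± 0.488 to 222 ± 17.1 CPM. Timp3, a matrix-bound metalloproteinase inhibitor, fell in each condition, from 83.0 ± 3.86 CPM in control to 50.2 ± 5.54 with IL-4/13, 21.9 ± 2.27 with Inf and 13.8 ± 1.05 with the combination. Adding IL-4/13 to Inf raised 2 of the 10 (Mmp12 and Timp1) and lowered 4 (Ctsl, Mmp2, Slpi and Timp3). Of all tested genes, 7.55% were called higher and 7.00% lower in that comparison. The inhibitor Timp1 rose by 33.4% in it, from 383 CPM with Inf, where control was at 226. Slpi fell to 176 CPM with the combination. Elane and Prtn3, the elastases of neutrophils, had at most 3 counts.

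**Figure D5:**
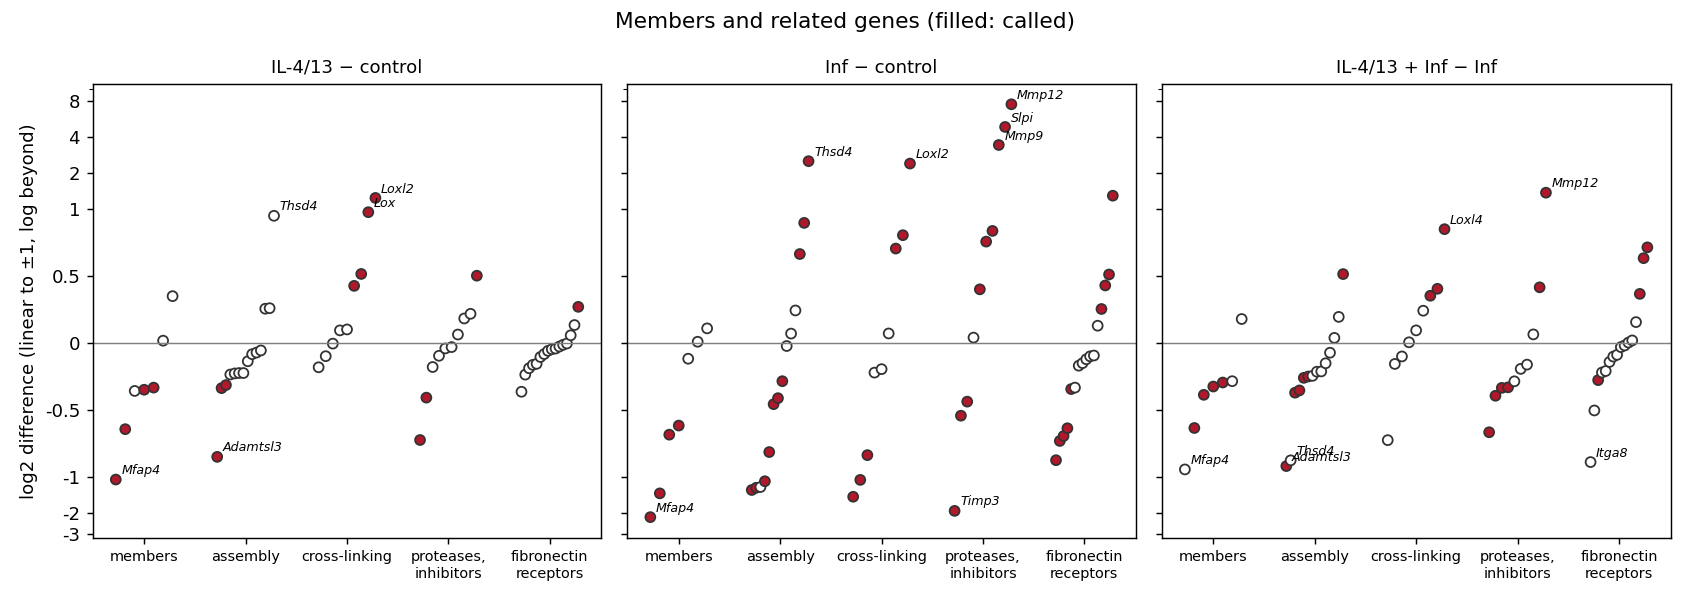
Log2 differences of the members and of the 4 lists of related genes in 3 comparisons (linear to ±1, log beyond); filled points were called. Members and assembly genes lie mostly below 0 in all 3, cross-linking genes are called only above 0 where IL-4/13 was added, and the fitted value of Mmp12 with Inf rests on a control near 0 and is no measure of size.

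Of the 16 tested genes on the list of fibronectin receptors and fibril assembly, IL-4/13 raised 1, Itgb5, where 2.78% of all tested genes were higher. Inf lowered 5 and raised 4, where 15.3% and 16.3% of all tested genes were called. Itga5, the α5 integrin chain, was called in no comparison. It was at 398 CPM in control, 382 with IL-4/13, 366 with Inf and 358 with both. The β1 chain Itgb1 was called lower with Inf, at 914 CPM against 1160 in control. Itgb5, the β5 integrin chain, was at 378.1, 381.4 and 376.9 CPM in control, 451.9, 452.9 and 465.2 in IL-4/13, 422, 413.3 and 407.2 under Inf, and 688.2, 671.6 and 679.7 under IL-4/13 + Inf. The conditions were separate, with IL-4/13 + Inf highest. IL-4/13 raised Itgb5 1.21-fold without Inf (adjusted P = 6.2e-06) and 1.64-fold with it (adjusted P = 4.32e-15). With Inf, the syndecan Sdc2 fell by 39.8%, the α3 integrin chain Itga3 by 35.7% and the integrin-linked kinase Ilk by 38.3%. Ilk had few reads, at 6.90 ± 0.613 CPM (SD, n = 3) in control and 4.30 ± 0.556 with Inf. Itgb5 shares 8.17% and Ilk 8.12% of its 50-base stretches with another gene, so their counts are less certain, while none of the 9 members shares any.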

How the data were processed

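Polyadenylated RNA of 3T3-L1 fibroblasts was sequenced by the authors from stranded libraries, 3 in each of 4 conditions. Per the labels' processing notes, STAR and featureCounts were used with GRCm39, with no version, annotation or strand setting given in the sources used here. The deposited values are raw counts per gene, not normalized. Doses and time come from the study's methods.

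Genes were filtered with filterByExpr (minimum count 10, minimum total 15), and all 12 libraries were fitted with edgeR 4.0.16 (R 4.3.3; TMM scaling, robust quasi-likelihood test), with Benjamini-Hochberg adjustment over the 14810 tested genes within each contrast. A call needed an adjusted P under 0.05 and a log2 difference beyond 0.25, the study's thresholds for its pseudobulk data. The study names DESeq2 for these libraries, and DESeq2 1.42.0 was an alternative. CPM are counts per 1000000 of effective library size. Confidence intervals are 95% and unadjusted. The code was tested on simulated counts. Depth and intervals cover counting and library spread only.

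Transcript lengths and exon overlaps are from GENCODE M21 and upstream windows from RefSeq (both GRCm38, used for no count). Symbols missing from the table (23268 genes) came from a gene name table, which gave 19511.

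Named were all 9 members and, per member, the 3 genes with the highest correlation. Per list and contrast, up to 3 called genes with the largest change, at least 5 CPM in 1 condition and no overlap were chosen. Adamts6, Ctsk and Itgb3 were chosen by this rule too but are not described above. Loxl1, Loxl2, Tll1, Ltbp2, Emilin2, Thsd4, Elane, Prtn3, Itga5, Itgb1 and genes named as counted were added after their values were seen. The members and lists were chosen with earlier results of these data known. Alternatives were other scaling, filters, thresholds, DESeq2, only the groups compared, a replicate block and leaving out each library. The ratio of Fbn2 to Fbn1 was not tested, since Fbn2 had at most 3 counts.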

Additional observations from a re-analysis of the deposited data

Results flagged for a closer look

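The response to IL-4/13 differed with and without Inf, by the interaction in edgeR, for 1 of 7 tested members and 6 of 49 tested related genes. The member was called lower, and of the related genes 1 was called higher and 5 lower. Of all tested genes, 1.52% were called higher and 1.59% lower in the interaction. Among these genes Loxl2, at under 5 CPM in every condition, had the largest value (-1.97 ± 0.46 SE, log2, adjusted P = 0.0103). For Fbln1 it was -0.34 ± 0.09 SE (log2, adjusted P = 0.0258), with IL-4/13 giving 0.02 without Inf and -0.33 with it. For Lox, lysyl oxidase, it was -0.57 ± 0.05 (adjusted P = 7.06e-09), a rise of 0.98 without Inf against 0.41 with it, on an Inf level already 0.71 above control. The metalloproteinase gene Mmp9 had -0.70 ± 0.10 (adjusted P = 6.26e-05), Mmp2 -0.36 ± 0.07 (adjusted P = 0.000628) and the cathepsin gene Ctsl -0.29 ± 0.05 (adjusted P = 0.000905), a call that was lost without Inf replicate 3 (-0.248, within the threshold of 0.25). Mmp2 was at 503 ± 35.6 CPM (SD, n = 3) in Inf, against 381 ± 15.7 in control, 373 ± 13.6 with IL-4/13 and 383 ± 2.75 with the combination. Itgb5 had 0.45 ± 0.05 (adjusted P = 1.74e-06), a rise of 0.27 without Inf and 0.72 with it. Ctsl shares 6.9% of its 50-base stretches with other genes.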

How the results depend on the processing

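Member calls depended most on the threshold for the log2 difference. At 0.5, members called lower numbered 2 with IL-4/13 against control, 1 for IL-4/13 + Inf against Inf and 0 in the interaction, and at 1 they numbered 1 with IL-4/13, 2 with Inf, 3 with both, 0 for IL-4/13 + Inf against Inf, 2 against IL-4/13 and 0 in the interaction. At an adjusted P of 0.01 the interaction had 0. Related genes called lower at a threshold of 0 numbered 10 with IL-4/13 and 16 for IL-4/13 + Inf against Inf. At 0.5 they were 2 lower with IL-4/13, 12 lower with both, 5 higher and 2 lower against Inf, and 0 higher and 3 lower in the interaction. At 1 they were 1 higher and 0 lower with IL-4/13, 6 and 6 with Inf, 7 and 7 with both, 1 and 0 against Inf, 3 and 8 against IL-4/13, and 0 and 1 in the interaction. DESeq2, or no filter on low counts, gave 2 related genes higher in the interaction. The shares of all tested genes given in the Results hold only at the main thresholds and have no counterpart here. Whether these counts changed more or less than those of all tested genes was therefore not tested.

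Leaving out each library in turn gave 0 to 1 members higher with IL-4/13 (Fbn1, without control replicate 3), 0 to 1 lower in the interaction (Fbln1), 1 to 2 related genes higher in the interaction, and 0.23 to 0.58 for the effect of IL-4/13 on the log2 ratio of Mfap5 to Mfap4 (exact permutation P = 0.045 without IL-4/13 replicate 3). Directions that turned belonged to uncalled differences near 0: Fbn1 with Inf (-0.072 to 0.131, and -0.015 by library size alone), Fbln1 with IL-4/13 (-0.027 to 0.061), Mfap5 with Inf (-0.181 to 0.021), and the interactions of Fbln2 (-0.082 to 0.011), Fbln5 (-0.01 to 0.084), Mfap4 (-0.15 to 0.44), Mfap5 (-0.13 to 0.10, and -0.006 with a filter at a mean of 50 counts) and Fn1 (-0.05 to 0.17). Scaling by library size alone put Fbln1 over the threshold for IL-4/13 + Inf against IL-4/13 (-0.27, adjusted P = 0.00136). The cause was not tested.

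Same-numbered libraries did not move together: 0 of 18 such pairs correlated over 0.1 (-0.121 to 0.061). Whether they were set up together cannot be told from these correlations. A replicate block changed no call of a member or a related gene named here (4 members lower with IL-4/13, 4 with Inf and 5 with both). With the mean of 50 counts Mfap4 was not tested, and depth limits Mfap4, Eln and Fbn2.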
